A study of Mus musculus with 15 samples.

Results

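Cultured mouse skin fibroblasts were compared with 7 other cell types and tissues by the stretches of their chromatin that nucleases can reach. The regions described are those with a DNase-seq peak in the skin fibroblast list and in none of the other 7 lists. They were found by joining all touching or overlapping peaks of the 8 lists into 1 set of 237612 regions. The fibroblast list reached 58165 of these regions, and 14138 of them, or 24.3% (Wilson 95% interval 24.0 to 24.7, counting error only), had no peak of any other list. These are called fibroblast-only regions below, and the remaining 44027 are called shared fibroblast regions. A missing peak does not show that chromatin was closed, because it says only that no peak was called there.

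Nucleosomes leave regulatory DNA exposed where transcription factors and the transcription machinery are bound, and such sites are cut preferentially by DNase I. Sites at promoters and at binding sites of the insulator protein CTCF tend to be accessible in most cell types, whereas distal enhancers are largely specific to a cell type. Dermal fibroblasts are mesenchymal cells that make the collagen matrix of the skin, and in culture they divide and attach to plastic, conditions that whole tissues do not share.

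The fibroblasts came from adult C57BL/6J mice and were grown in culture. The labels call them a cell line and, elsewhere, a primary fibroblast culture, and give neither sex nor number of mice. The embryonic stem (ES) cells were also C57BL/6J, grown on gelatin without feeder cells. Brain, heart, kidney and liver were whole organs of adult C57BL/6J mice, frozen and ground, so each holds many cell types, fibroblasts among them. The preSertoli cells, the somatic support cells of the fetal testis, were sorted at embryonic stages E13.5 and E15.5 (days after mating) from male F1 embryos of Sox9-ECFP C57BL/6J fathers and CD-1 mothers. The labels describe these embryos as Sox9 heterozygous. Endogenous nucleases did the cutting in preSertoli cells and added DNase I in all others, so digestion method and cell type cannot be told apart there. Each group is 1 library, so no test between cell types is possible and no p-value is given. The peak lists carry no gene names, and no annotation of their build, mm9, was used here. Regions are therefore named by position, and the fibroblast label was not checked against marker genes.

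The fibroblast list was the shortest of the 8, with 62218 peaks that covered 27.5 Mb. The other lists held from 63330 peaks in adult brain to 96536 in ES cells. The number of reads behind each list is unknown. Chromosome Y carried 115 fibroblast peaks, against 70 in E13.5 and 61 in E15.5 preSertoli cells and 0 in the other 5 lists, so Y regions could be shared with preSertoli cells alone.

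Fibroblast regions fell mostly at the ends of the range of sharing. The largest class, 20859 regions or 35.9%, had a peak in all 8 lists, and the fibroblast-only class came next. Regions shared with 1 to 6 other lists made up between 5.32% (5 other lists) and 9.26% (1 other list) each.

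Fibroblast-only regions were weak. Column 7 of each list holds the authors' signal height of a peak, whose scaling between libraries is not stated, so peaks were ranked within the fibroblast list and given as a percentile of that list. The median fibroblast-only peak had a signal height of 0.0819 (quartiles 0.0706 and 0.106) and stood at percentile 28.3 (quartiles 13.2 and 46.9). The median shared fibroblast region had a height of 0.140 and stood at percentile 61.2 (quartiles 35.0 and 82.1). The difference of medians, fibroblast-only minus shared, was -32.9 percentile points. It had the same direction on all 21 chromosomes. Chromosome medians ran from 22.3 to 31.5 for fibroblast-only regions and from 56.0 to 65.1 for shared ones, and the ranges did not overlap. In the upper part of the list, at percentile 50 or above, lay 21.5% of fibroblast-only and 61.4% of shared regions. This weakness was not particular to fibroblasts. In each other list, regions found in that list alone were also the weaker class. The difference of medians there ran from -39.9 points in E15.5 preSertoli cells to -23.9 in liver.

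Strength rose step by step with the number of lists that shared a region. The median percentile was 34.0 with 1 other list, 42.2 with 3, 49.0 with 5 and 54.1 with 6. It then went to 80.8 for regions in all 8 lists. Regions that fibroblasts shared with a single other list therefore lay closer to the fibroblast-only class than to the class shared by all.

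**Figure D1:**
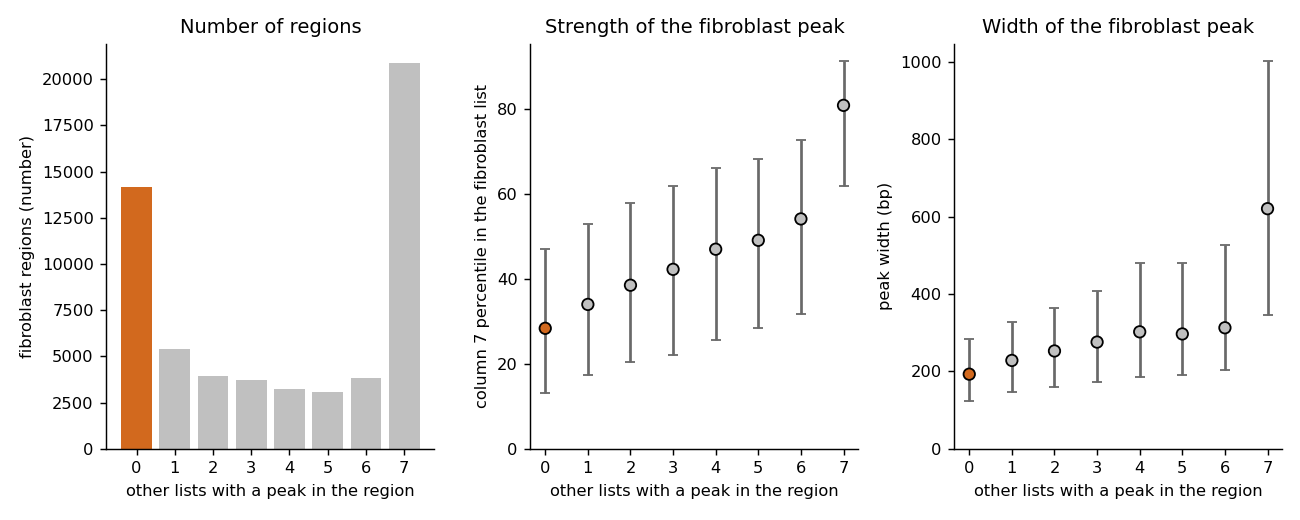
Fibroblast regions by the number of other lists with a peak there (0 to 7), with the number of regions on the left, the column 7 percentile in the middle and the width of the fibroblast peak in bp on the right. Points are medians, bars span the quartiles, and fibroblast-only regions (0 other lists, orange) are the weakest and narrowest class, with medians of 28.3 and 193 bp.

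Fibroblast-only peaks were also narrow. Their median width was 193 bp (quartiles 124 and 283 bp), against 368 bp (quartiles 225 and 706 bp) for the strongest fibroblast peak of a shared region. The difference of medians was -175 bp, and fibroblast-only peaks were the narrower class on all 21 chromosomes. Every other list had the same direction. The ratio of shared to own median width was 1.91 in fibroblasts, and elsewhere ran from 1.38 in liver to 2.34 in E13.5 preSertoli cells. The widest fibroblast-only peak reached 1409 bp and the widest shared one 13657 bp. Every fibroblast-only region held a single fibroblast peak, and 3452 shared regions (7.84%) held several. The rule fixes this contrast, because separate fibroblast peaks are joined only through a peak of another list, which makes the region shared. Together the fibroblast-only peaks covered 3.04 Mb, against 23.2 Mb for the strongest peaks of shared regions.

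Width followed strength closely. Among the weakest decile of the list, fibroblast-only and shared peaks had median widths of 78 and 80 bp. In the fifth decile they had 259 and 264 bp. The gap opened only in the strong part of the list, with 427 against 480 bp in the eighth decile and 512 against 763 bp in the ninth. Fibroblast-only peaks were the narrower class in all 10 deciles, but over most of the list by a few bp.

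The fibroblast-only share fell along the whole range of strength. It was 48.6% (Wilson interval 47.3 to 49.9) in the weakest decile of the list, 29.5% in the fifth decile, 8.63% in the eighth and 1.51% in the ninth. In the strongest decile it was 0.0805% (0.0344 to 0.188), or 5 of 6209 regions. Of all fibroblast regions, 10.7% lay at or above percentile 90, against 0.0354% of the fibroblast-only regions. ES cells had 163 own regions that high in their list and liver 85, whereas the other 5 lists had 0 to 2.

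The other lists fell in the same way but not at the same pace. In the weakest decile, the share of regions found in that list alone was 51% in E13.5 preSertoli cells, 49.0% in E15.5 preSertoli cells, 46.3% in heart and 44.3% in liver, near the fibroblast value. ES cells were higher, at 67.0%, and brain (40.2%) and kidney (36.6%) lower. In the seventh decile, fibroblasts kept 17.3%, below ES cells (31.2%) and liver (24.3%). They lay above brain (11.4%), kidney (10.4%), heart (10.3%) and the preSertoli cells (7.66% at E13.5 and 4.08% at E15.5). A region of either preSertoli list can be lost to the other stage of the same cell type, which no other list can.

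**Figure D2:**
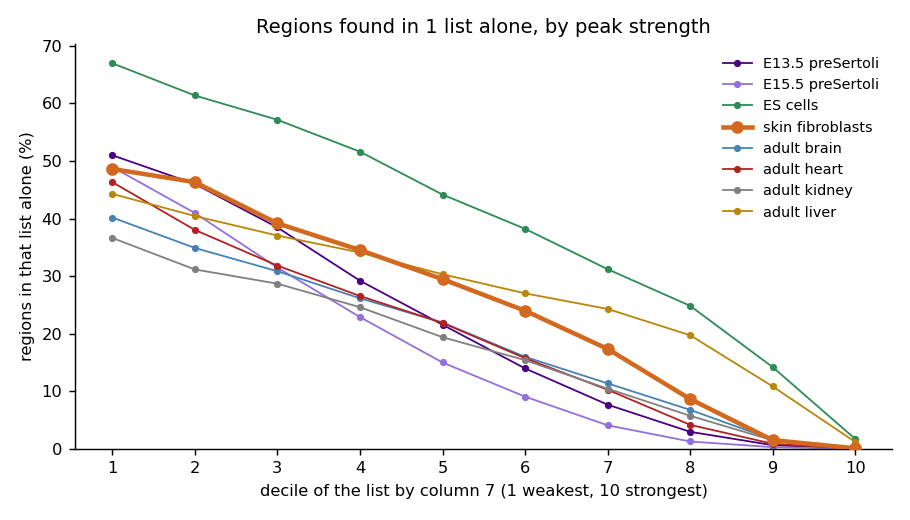
Share of the regions of each list that no other list holds (y axis, %), by decile of the list ordered by column 7 (x axis, 1 weakest, 10 strongest). The fibroblast line (thick, orange) falls from 48.6% to 0.0805% and from the sixth decile to the eighth runs below ES cells and liver and above the other 5 lists.

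Over whole lists, the fibroblast share of 24.3% came after ES cells and liver. ES cells had 38.8% of their regions to themselves and adult liver 26.5%. E13.5 preSertoli cells followed with 20.7%, heart with 19%, brain with 18.4%, kidney with 16.9% and E15.5 preSertoli cells with 16.8%. With every list held to the 62218 strongest peaks, the fibroblast share was 27.8%. It then lay above liver (26.5%) and below ES cells (30.4%), so the order of fibroblasts and liver depended on list length.

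Among the shared regions, 6 of the 7 partner lists had similar shares and liver a lower one. ES cells had a peak in 57.1% of all fibroblast regions, E13.5 preSertoli cells in 56.9%, E15.5 preSertoli cells in 56.5%, heart in 54.8%, kidney in 54.2% and brain in 53.5%. Liver was lowest at 48.1%. Of the 5386 regions shared with exactly 1 list, 1409 were shared with ES cells, 1045 with heart, 776 with brain, 611 with E15.5 preSertoli cells, 538 with liver, 515 with kidney and 492 with E13.5 preSertoli cells. Regions held by both preSertoli stages are not in this tally, and with their 781 regions added, 1884 were held by fibroblasts and preSertoli cells alone, more than with ES cells alone. Of all regions of the partner list, those shared with fibroblasts alone made up 1.51% for ES cells, 1.57% for heart, 1.299% for brain and 0.592% for E13.5 preSertoli cells. Regions shared with heart alone and with brain alone stood at median fibroblast percentiles of 37.5 and 39.6, above those shared with ES cells alone (32.0). Another 1134 regions were held by fibroblasts, ES cells and both preSertoli lists and by no adult organ. Fibroblasts and the 4 adult organs alone held 405. These counts are not a like comparison, because the first set needs fewer other lists, among them both stages of 1 cell type. Its lists are also longer, with 81467 to 96536 peaks against 63330 to 72883 in the organs.

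Some fibroblast-only regions lay close to a peak of another list, when all other lists were pooled. The gap to the nearest peak of any other list had a median of 1906 bp (quartiles 578 and 5659 bp), and 3189 regions (22.6%) had such a peak within 500 bp. At the other end, 294 regions (2.08%) were more than 50 kb from any peak of the other lists. Distance did not go with strength in a simple way, since regions within 500 bp stood at a median percentile of 24.1 and those beyond 50 kb at 24.5. To a single other list the gap was wider, with medians from 5582 bp for E13.5 preSertoli cells to 9288 bp for brain. The share of regions within 500 bp was then between 5.60% for liver and 9.68% for E15.5 preSertoli cells. The nearest shared fibroblast region lay at a median of 10374 bp. The pooled distance is not a like comparison with these, because the pool holds far more peaks. Distances expected by chance were not computed.

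At the edge of the definition, 764 fibroblast-only regions lay 100 bp or less from a peak of another list, with a median percentile of 22.6. Among shared regions, 807 had fewer than 50 bp of their strongest fibroblast peak covered by other lists, with a median percentile of 6.55. Both groups stood below the fibroblast-only class as a whole. For the 807 this is partly set by the choice, because a limit in bases takes in narrow peaks. Their median width was 90 bp, and narrow peaks were weak over the whole list. A peak narrower than 50 bp was counted even if another list covered all of it.

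The fibroblast-only share varied between chromosomes. Over the 19 autosomes it had a median of 24.9%. It ran from 19.6% on chromosome 11 (Wilson interval 18.4 to 20.8) to 28.1% on chromosome 1 (26.6 to 29.5). Chromosome X was lower, at 17.6% (154 of 874 regions; Wilson interval 15.2 to 20.3). Chromosome Y was higher, at 48.6% (51 of 105; interval 39.2 to 58.0), where 5 of the 7 other lists had no peak at all.

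The strongest fibroblast-only regions formed a small group set apart from the rest. Only 3 of them had a signal height above 1, while the fourth stood at 0.568. The strongest lay on chromosome 17 from 15129213 to 15130459, with a height of 1.23 at percentile 99.3 and rank 438 of the 62218 fibroblast peaks. The other two were on chromosome 9 from 56071310 to 56071869 (1.17, percentile 99.0) and on chromosome 17 from 15160607 to 15161858 (1.11, percentile 98.8). No other list had an own region as high in its own ranking. The best reached percentile 98.4 in ES cells, 96.4 in liver, 92.8 in E13.5 preSertoli cells, 92.7 in kidney and between 88.7 and 88.9 in the remaining 3 lists. Even so, 437 shared fibroblast regions were stronger than the strongest fibroblast-only region, and 432 of these were in all 8 lists.

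Of the 10 strongest fibroblast-only regions, 5 lay in a row on chromosome 17, between 15115500 and 15178830. This stretch of 63.3 kb held 5 fibroblast peaks and 0 peaks in each of the other 7 lists. Broad and narrow peaks alternated in it. The broad ones were 1247 and 1252 bp wide with heights of 1.23 and 1.11. The 3 narrow ones, which start at 15115500, 15146828 and 15178228, were 607, 611 and 603 bp wide with heights of 0.495, 0.544 and 0.507.

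The alternation was regular in spacing as well as in size. Each narrow peak started 31328 or 31400 bp after the narrow peak before it, and the broad peaks started 31394 bp apart. Just before the row, at 15097599 to 15098848, a further fibroblast peak of 1250 bp and height 1.11 started 31614 bp before the first broad one. It was not fibroblast-only, because E13.5 preSertoli cells and ES cells had peaks of 210 and 192 bp in it with heights of 0.0946 and 0.0712. Farther out, a peak at 15079806 was found in all 8 lists, with heights from 0.278 in E15.5 preSertoli cells to 0.695 in fibroblasts. It broke the pattern, since its fibroblast peak was 838 bp wide and started 35694 bp before the first narrow one. Whether the stretch holds repeated sequence, and how reads of such sequence were placed in each library, was not tested, since no mm9 sequence was used here.

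**Figure D3:**
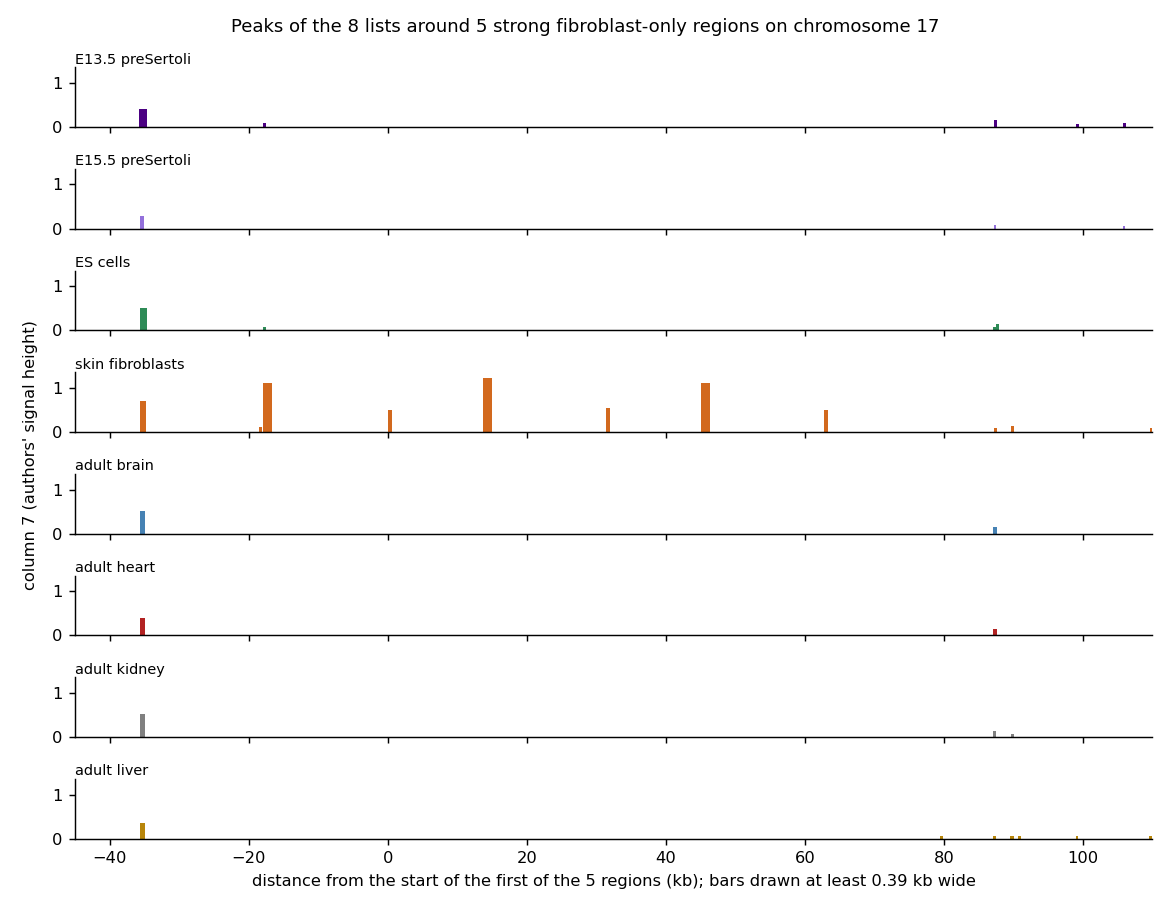
Peaks of each list (rows) around the 5 strong fibroblast-only regions of chromosome 17, with the distance from the first of them in kb on the x axis and the authors' signal height (column 7) on the y axis. Fibroblasts show alternating heights of about 1.1 to 1.2 and about 0.5, between peaks at both ends of the plot that all lists share. The other 7 lists are empty between the first and the last of the 5 regions.

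The chromosome 9 region had no strong neighbour. Its 560 bp peak had the second greatest height among fibroblast-only regions, yet within 10 kb on either side the fibroblast list held only a peak of 50 bp at percentile 1.71 and a shared one at percentile 52.1. The nearest peak of any other list was a 39 bp brain peak at percentile 0.587, 5881 bp away.

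A second group of strong fibroblast-only peaks, chosen after its values were seen, lay on chromosome 4 between 42322608 and 42695930. All 9 fibroblast peaks of this stretch of 373 kb were fibroblast-only, while E15.5 preSertoli cells had 1 peak and the other 6 lists had 0. The peaks gathered at both ends. At the first end, peaks of 858 and 865 bp with heights of 0.396 and 0.419 started 11756 bp apart. At the last end, peaks of 1140 and 816 bp with heights of 0.347 and 0.409 started 11887 bp apart.

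The remaining 4 of the 10 strongest regions had heights from 0.425 to 0.568. One began at 78790422 on chromosome 15, 689 bp wide and 180 bp from an ES cell peak. Another, of 569 bp, began at 100264081 on chromosome 6, and no other list had a peak within 6573 bp of it. The region of 492 bp at 137286604 on chromosome 4 lay 53 bp from a peak of another list, and that of 589 bp at 119794371 on chromosome 11 lay 298 bp from one. On chromosome 4 the neighbour was an E15.5 preSertoli peak of 615 bp at percentile 96.3. When peaks up to 500 bp apart were joined, 7 of the 10 strongest regions were still fibroblast-only. None of the 10 overlapped a preSertoli H3K27ac domain, a mark that 5.67% of all fibroblast-only regions overlapped.

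The strongest shared regions were higher than any fibroblast-only region, though not all were wider. The highest, on chromosome 17 from 39979746 to 39986003, had the top rank in each of the 8 lists, with heights of 3.72 in fibroblasts, 3.32 and 4.605 in E13.5 and E15.5 preSertoli cells, 1.63 in ES cells and 1.12 to 1.19 in the adult organs. The next 4 shared by all lists lay on chromosomes 2, 7, 11 and 7, with fibroblast heights from 2.13 to 2.30. The fifth of them (chromosome 7, 52883720 to 52884792) had a fibroblast height of 2.13 against 0.285 in ES cells, where it stood at percentile 85.2. In the other 6 lists it stood between percentile 90.1 in kidney and 98.5 in E15.5 preSertoli cells.

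Fibroblast-only regions gathered in some windows but were mostly scattered. Windows of 100 kb, counted from the start of each chromosome, were filled by region midpoint. Of 14736 windows with any fibroblast region, 8293 held a fibroblast-only region, and in 4842 of these it was a single one. At least 5 fibroblast-only regions lay in 236 windows, which together held 1362 of them (9.63%). Shared fibroblast regions were more gathered by the same measure, with 53.5% of them in windows that held at least 5, but they are also more numerous. The dense windows held a median of 5.5 shared fibroblast regions, against 2 over all windows, and in 109 of the 236 fibroblast-only regions outnumbered shared ones.

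The densest windows were rich in fibroblast peaks of every kind. The first lay on chromosome 1 from 85200001 to 85300000, with 13 fibroblast-only and 22 shared regions. It held 43 fibroblast and 37 liver peaks, against 10 to 19 in the other 6 lists, and liver had 11 regions of its own there. The window before it, from 85100001, had 11 fibroblast-only and 6 shared regions, and 18 fibroblast peaks against 1 to 9 elsewhere. On chromosome 8 from 19700001 to 19800000 there were 11 fibroblast-only regions among 27 fibroblast peaks, against 6 to 22 peaks in the other lists. On chromosome 12 from 114100001 to 114200000 there were 10, among 33 fibroblast peaks, while E15.5 preSertoli cells had as many peaks and 9 regions of their own. The fifth window named, on chromosome 1 from 87500001 to 87600000, held 9 fibroblast-only regions and 19 fibroblast peaks, against 4 to 11 elsewhere. It was 1 of 6 windows tied at 9 and was named for having the fewest shared fibroblast regions and, on a further tie, the earlier position. The other 5 lay on chromosomes 1, 10, 7, 4 and Y. In the tied window of chromosome 4, E15.5 preSertoli cells had as many peaks as fibroblasts, 20.

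Fibroblast-only regions in these 5 windows were about as weak as the class as a whole. Their median percentiles were 29.6, 23.7, 26.8, 18.9 and 33.9 in the order given. None of the 10 strongest fibroblast-only regions lay in these 5 windows. The window from 15100001 on chromosome 17, which holds 5 of those 10, was nevertheless among the 236, with 5 fibroblast-only regions.

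**Figure D4:**
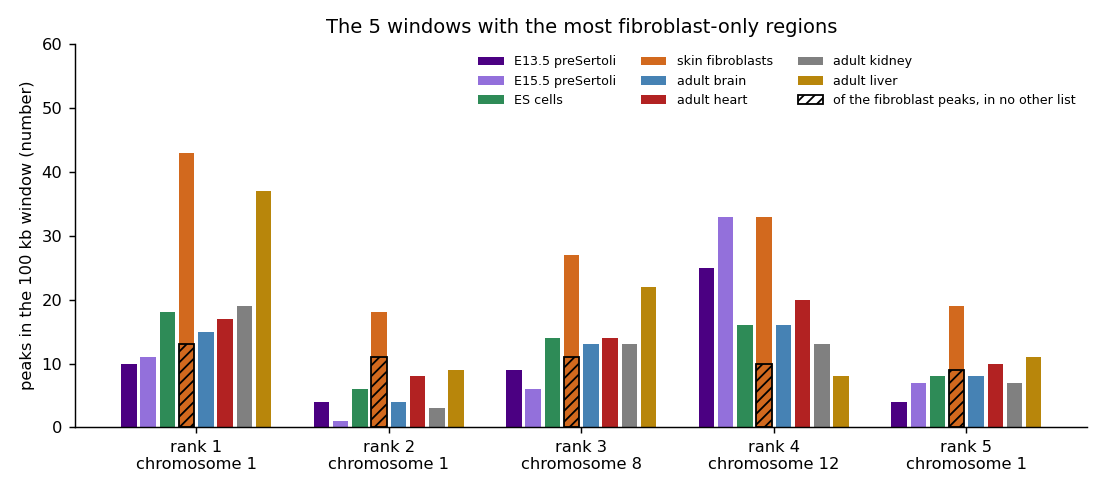
Number of peaks of each of the 8 lists in 5 windows of 100 kb with the most fibroblast-only regions, in order of that number, the last being 1 of 6 tied at 9. The hatched part of the orange fibroblast bar marks peaks in no other list (13, 11, 11, 10 and 9), and fibroblasts have the tallest bar in every window except that on chromosome 12, where E15.5 preSertoli cells equal them at 33.

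Along the chromosomes, 77.9% of fibroblast-only regions stood alone, with a region of another kind on either side or the chromosome's end. Runs of at least 3 with nothing else between them held 5.91%, against 19.7% in ES cells, 15.53% in liver and 3.60% to 8.40% in the other 5 lists. The longest run had 15 regions over 372 kb on chromosome 14 (26705521 to 27077818), at percentiles from 8.81 to 72.2. A run of 11 lay on chromosome Y (2481896 to 2777790). A run of 8 on chromosome X was packed into 10.9 kb (120326036 to 120336925).

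H3K27ac, an acetylated histone found at promoters and enhancers in use, was measured in this series in E13.5 preSertoli cells, as a list of 28586 domains. It says nothing of fibroblast chromatin directly. Of fibroblast-only regions, 802 or 5.67% (Wilson interval 5.30 to 6.07) overlapped such a domain, against 35.7% (35.3 to 36.2) of shared fibroblast regions and 28.4% of all fibroblast regions. The rule itself bears on this gap: a fibroblast-only region has no preSertoli peak by choice, and the domains are from preSertoli cells. Region width bears on it too, since overlap was counted over the joined region and not the fibroblast peak. Joined regions had a median width of 193 bp when fibroblast-only, 699 bp when shared and 1034 bp when in all 8 lists. Shares at equal width were not computed. Among fibroblast regions without a preSertoli peak that some other list held, the share was 7.55% (7.00 to 8.14). Among the 1884 that only fibroblasts and preSertoli cells held it was 26.6%, although these stood at a median percentile of only 32.7. Fibroblast-only regions overlapped a domain in 6.67% of cases in the weakest decile of the list and in 5.21% in the eighth. Shared regions went from 15.53% to 33.0% over the same deciles. The rule bears on these trends too, since in no decile does a fibroblast-only region have a preSertoli peak. Regions in all 8 lists, at a median percentile of 80.8, overlapped a domain in 55.2% of cases. Shared regions were not split by preSertoli peak within deciles. Chromosome Y was high in both classes, with 17 of 51 fibroblast-only regions (33.3%) and 36 of 54 shared ones (66.7%) in a domain.

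Fibroblasts also stood out by what they lacked. Of 23064 regions with a peak in all 7 other lists, 2205 (9.56%) had no fibroblast peak. The same count, of regions missing from 1 list alone, was 1303 for liver, 576 for ES cells, 537 and 531 for E15.5 and E13.5 preSertoli cells, 414 for brain, 352 for heart and 101 for kidney. The fibroblast list was the shortest, and with 62218 peaks in every list the count was 1258 for fibroblasts and 1292 for liver, so the lead over liver depended on list length. ES cells followed with 861, and the other 5 lists had 88 to 528.

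Few of these missing regions were strong in all the lists that held them. In 34 of the 2205 (1.54%), every one of the 7 other lists had a peak at percentile 75 or above of its own list while fibroblasts had none. The same count was 5 of 537 (0.931%) for E15.5 preSertoli cells, 4 of 576 (0.694%) for ES cells, 3 of 1303 (0.230%) for liver and 0 for the other 4 lists. At percentile 90 or above it was 10 for fibroblasts and 0 for each other list.

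The 10 strongest missing regions lay on chromosomes 11 (3 regions), 19 (3), 16 (2), 8 and 4, and the nearest fibroblast peak was between 6770 and 31618 bp away. On chromosome 11, the region from 54673523 to 54674675 stood at percentiles between 97.5 in brain and 99.8 in ES cells in the 7 other lists. A neighbour from 54769103 to 54769990 stood between 96.6 in heart and 98.5 in E13.5 preSertoli cells. Both lay in a stretch of 465 kb (54336652 to 54801608) with 1 fibroblast peak, of 252 bp at percentile 51.0. The ends of this stretch were set at fibroblast peaks on either side, so its low fibroblast count follows from how it was drawn. The other lists had 22 peaks there in brain, 27 in liver, 32 in E13.5 preSertoli cells and in kidney, 33 in heart, 37 in E15.5 preSertoli cells and 39 in ES cells. The region on chromosome 19 from 21851565 to 21853828 came next, at percentiles from 96.4 in liver to 98.6 in heart, and lay in 59.9 kb without a fibroblast peak. The region on chromosome 8 from 47084433 to 47085940, at 93.6 to 99.3, lay in 163 kb without one. Both of these gaps likewise run from 1 fibroblast peak to the next.

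**Figure D5:**
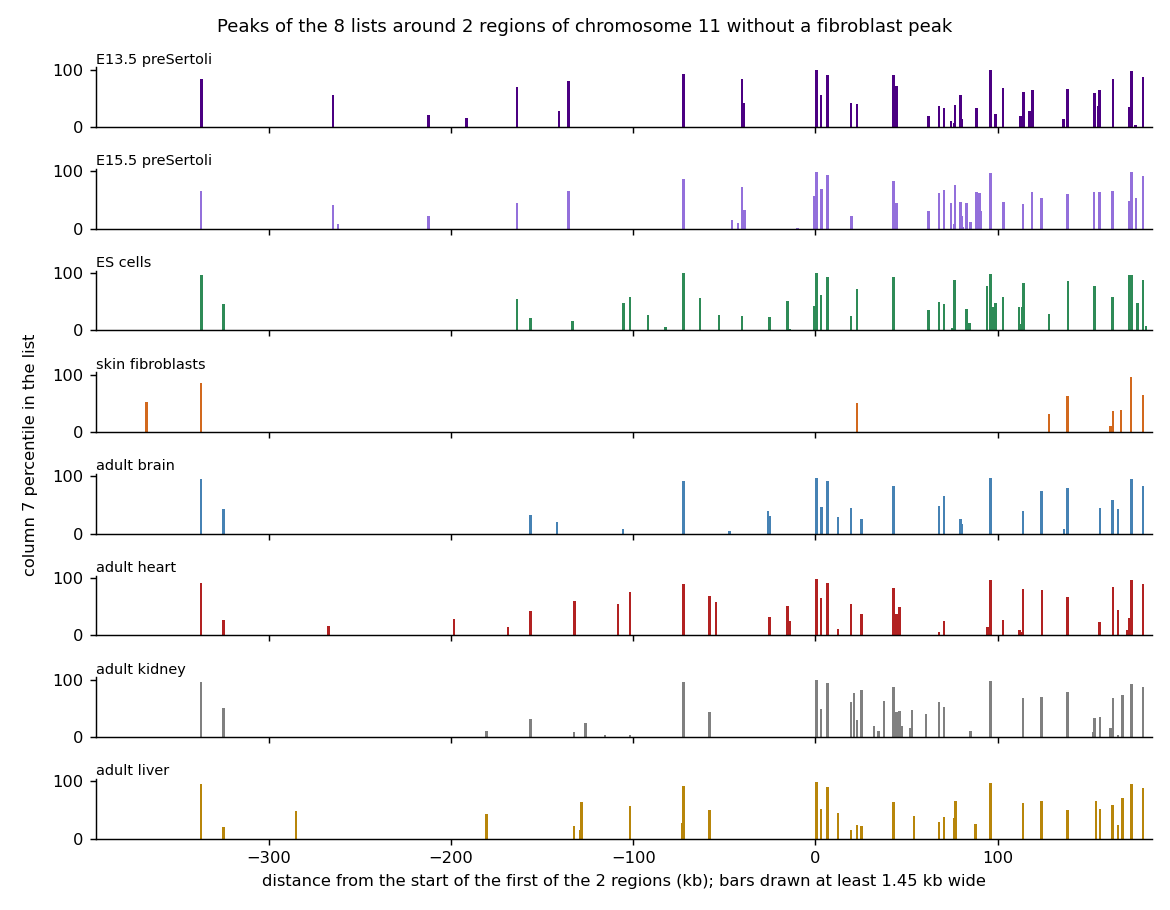
Peaks of each list (rows) on chromosome 11 around the 2 strongest regions that all lists but fibroblasts hold, with the distance from the start of the first in kb on the x axis and the column 7 percentile in the list on the y axis. Fibroblasts have 1 peak, at percentile 51.0, over 465 kb in which the other lists have 22 to 39. The ends of the 465 kb were set at fibroblast peaks, so the low fibroblast count follows from how it was drawn.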

How the data were processed

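Peak lists of 8 DNase-seq libraries and 1 H3K27ac domain list, all in mm9, were used. The submitters' processing notes name BWA 0.6.1-r104, SAMtools and bedtools for DNase-seq and CASAVA 1.8.2, Bowtie and SICER for ChIP-seq. For the DNase peak caller and its threshold: not given in the sources used here. The lists have no header. In the deposited lists column 5 holds a score, column 7 the authors' signal height and column 8 a −log10 p-value, as read from their values. Read depth is unknown.

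Peaks of the 8 lists were joined where they touched or overlapped by at least 1 bp (checked against bedtools 2.31.1 and tested on simulated data; Python 3.11.15, pandas 2.3.3). The strongest fibroblast peak gave a region its percentile and width. H3K27ac overlap needed 1 bp of the joined region. Wilson 95% intervals are given for shares and reflect counting error alone. Named regions were the 10 strongest fibroblast-only regions, the 5 strongest shared by all lists and the 5 densest windows. Alternatives were list length, joining gap, merging, width, window position, H3K27ac overlap, leaving out lists and autosomes alone. The members and comparisons were chosen with earlier results of these data known, and the missing regions and runs were added after values were seen. RNA-seq and input libraries were not used.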

Additional observations from a re-analysis of the deposited data

How the results depend on the processing

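With each list reduced to its stronger part (percentile 50 and above), the fibroblast-only count was 5311 in place of 14138, the percentile difference -17.7, the width difference -270 bp, the dense windows 16 and the H3K27ac share 7.14%. With 62218 peaks in every list, the count was 16168, the percentile difference -33.9, the width difference -183 bp, the windows 355 and the H3K27ac share 6.40%. With peaks up to 500 bp apart joined, the count was 10540, the percentile difference -31.5, the windows 67 and the H3K27ac share 3.31%. Without merging they were 16425, -28.8, 376 and 6.82%, and the width difference was -152 bp. Without both preSertoli lists the count was 16479, the percentile difference -34.1, the windows 400 and the H3K27ac share 9.14%. Taking the width of the merged region gave a width difference of -506 bp, and requiring 50% coverage by a domain gave a share of 5.27%.

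Leaving out 1 other list at a time gave counts from 14701 to 15920, percentile differences from -33.8 to -33.0, width differences from -182 to -177 bp, 263 to 335 windows and H3K27ac shares from 5.66% to 6.91%. Counted over the percentile and the width difference together, all 28 alternative values were below 0. The regions missing from fibroblasts numbered 1258 with equal list lengths and 1124 in the stronger part, both chosen after seeing the data. The cause of these shifts was not tested. No paired analysis was possible because each DNase group is 1 library and no test was made. Without read depth, a peak missing from a list cannot be told apart from one too weak to call.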

Other observations

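Windows of 100 kb that fibroblasts held almost alone, with at least 5 fibroblast peaks and at most 2 peaks of the other 7 lists together, numbered 6. By the same count ES cells had 40, liver 32, brain 10, heart 2, kidney 2, E13.5 preSertoli cells 1 and E15.5 preSertoli cells 0. The 6 fibroblast windows lay on chromosomes X (from 120300001, 9 fibroblast peaks), 17 (from 14700001 with 8 and from 15100001 with 5), 14 (from 26700001, 6), Y (from 1500001, 5) and 1 (from 171900001, 5). The chromosome 17 window from 15100001 holds the row of strong peaks, at percentiles from 89.6 to 99.3. In the other 5 windows the median percentile lay between 18.4 and 57.1.

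Regions missing from 1 list alone also differed in preSertoli H3K27ac. The 2205 regions without a fibroblast peak overlapped a domain in 16.2% of cases, which lay between the other lists. The share was 38.4% of those missing from brain, 36.8% from ES cells, 30.5% from liver, 22.7% from heart and 18.8% from kidney. It was lower for those missing from E15.5 preSertoli cells (14.0%) and from E13.5 preSertoli cells (9.98%), the stage at which the domains were measured.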
